A study of Mus musculus with 12 samples.

Results

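The genes described here are the 8 class I heavy chain genes H2-K1, H2-D1, H2-Q4, H2-Q6, H2-Q7, H2-T22, H2-T23 and H2-M3 of the mouse major histocompatibility complex (MHC), and B2m, which encodes their shared light chain. They were chosen by name, with earlier results of these data known, and make up 9 of the 24062 entries in each of the 2 deposited tables. RNA was sequenced from BV2, a cell line of immortalised microglia from mouse. Microglia are the resident macrophages of the brain. In 1 experiment Spi1 was lowered transiently with a short hairpin RNA (knockdown) and set against a scrambled control. In the other mouse Spi1 was raised transiently from a cDNA (overexpression) and set against an empty control. Each of the 4 groups had 3 libraries, all from cells sorted by flow cytometry, and the 2 experiments share no control. The sources used here give neither the vectors, nor the promoter that drives the cDNA, nor the sorting marker. Spi1 encodes PU.1, a transcription factor that myeloid cells need, and the series title ties its level to the inflammatory response of microglia.

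MHC class I molecules carry peptides from inside the cell to its surface, where cytotoxic T cells and natural killer cells read them. A heavy chain folds with B2m and a peptide in the endoplasmic reticulum, and without B2m most heavy chains do not reach the surface. H2-K1 and H2-D1 are classical heavy chains that present diverse peptides, while the H2-Q, H2-T and H2-M genes encode non-classical chains with narrower tasks. Microglia raise class I genes under interferon, through interferon-stimulated response elements, NF-kB sites and the transactivator Nlrc5.

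In GRCm38 with GENCODE M21, the heavy chain genes lie on chromosome 17 and B2m lies on chromosome 2. H2-K1 spans chr17:33996017-34000347 on the minus strand, and H2-D1 spans chr17:35262730-35267499 on the plus strand. H2-Q4, H2-Q6 and H2-Q7 follow each other on the plus strand at chr17:35379617-35385290, chr17:35424850-35430055 and chr17:35439155-35443773. H2-T23 and H2-T22 are minus-strand neighbours at chr17:36029773-36032855 and chr17:36037128-36042747. H2-M3 lies on the plus strand at chr17:37270220-37274484, and B2m on the plus strand at chr2:122147686-122153083.

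Upstream sequences from RefSeq (GRCm38.p6) are shown because the members fall into groups by the motifs they share before the gene start. All 9 members matched a promoter entry, and the 250 bases before each start were searched on both strands. Capitals mark matches to an NF-kB type motif, GGGNNTTNC, an interferon response motif, GAAANNGAA, or its class I variant TTTCACTTC, and each sequence is written on the strand of its gene. The first 3 belong to the genes that were called in knockdown, and H2-Q7 is the close relative of H2-Q6. The H2-Q4 stretch also lies in an exon of the antisense gene Gm11131, and the H2-T23 stretch lies within the annotated H2-T23 transcript. The H2-D1 stretch lies in an annotated exon of H2-D1, downstream of the GENCODE start, and is not printed.
H2-K1, chr17:34000424-34000463, minus strand: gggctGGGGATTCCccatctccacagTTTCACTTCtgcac
H2-Q4, chr17:35379438-35379477, plus strand: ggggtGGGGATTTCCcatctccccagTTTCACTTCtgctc
H2-Q6, chr17:35424672-35424711, plus strand: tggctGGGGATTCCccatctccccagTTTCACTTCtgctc
H2-Q7, chr17:35439017-35439055, plus strand: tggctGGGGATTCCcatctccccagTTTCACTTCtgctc
H2-T22, chr17:36042919-36042937, minus strand: ttagtTTCACTTTCgaatc
H2-T23, chr17:36032811-36032829, minus strand: ctgctTTCTCTTTCataaa
H2-M3, chr17:37270128-37270146, plus strand: tgaggTTTCACTTCtctgt
B2m, chr2:122147543-122147575, plus strand: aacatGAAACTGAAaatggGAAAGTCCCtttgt

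The NF-kB type motif was found before H2-K1, H2-D1, H2-Q4, H2-Q6, H2-Q7 and B2m, 6 of the 9, and in 13.0% of 32851 promoter windows of the same length. In H2-Q4 it matched at 2 overlapping positions. TTTCACTTC was found before H2-K1, H2-D1, H2-Q4, H2-Q6, H2-Q7 and H2-M3, again 6 of 9, and in 0.402% of all windows. GAAANNGAA was found before H2-T22, H2-T23 and B2m, and in 7.13% of all windows. CCAAT, the core of the NF-Y motif, was present before all 9 and in 33.8% of windows, and TGACG, the core of the CREB and ATF motif, before 7 and in 17.8%. GAGGAA, the core to which PU.1 binds, occurred before H2-T22 and H2-M3 and in 23.3% of windows, and its longer form GAGGAAGT before 0 of the 9 and in 2.44%. With the 9-letter motifs longer by a letter at the end (C for the NF-kB type, A for GAAANNGAA and T for TTTCACTTC), the same members matched, against 4.11%, 2.98% and 0.131% of all windows. TTTCACTTC was searched as the class I variant, so matches before class I genes were to be found from the start. The stretches before H2-K1, H2-D1, H2-Q4, H2-Q6 and H2-Q7 are nearly alike, and their matches do not count as separate ones. The shares of all windows are therefore no test of enrichment. These matches describe the letters in these windows and say nothing of binding. H2-K1, H2-Q4 and H2-Q6, which were called in knockdown, and H2-D1 and H2-Q7, which were not, hold both the NF-kB type motif and TTTCACTTC.

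**Figure D1:**
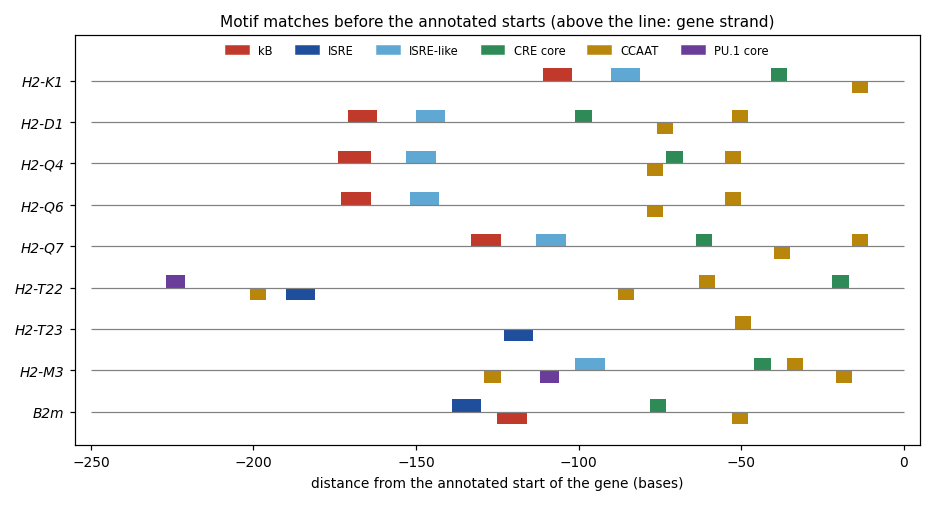
Motif matches in the 250 bases before the annotated start of each gene, with distance from the start in bases on the x axis and 1 line per gene; boxes above a line are on the strand of the gene and boxes below it on the other strand. ISRE is GAAANNGAA and ISRE-like is TTTCACTTC. The NF-kB type (kB) box and the ISRE-like box stand side by side in H2-K1, H2-D1, H2-Q4, H2-Q6 and H2-Q7, and CCAAT is present in all 9 genes.

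The libraries held 22.3 to 33.1 megareads on genes. Levels are given in FPKM, a read count scaled by gene length in kilobases and by library size in megareads. All 11 microglia and macrophage markers were found, and their summed level was 2960 to 3770 FPKM in knockdown, against 4500 to 5330 FPKM in scrambled controls. It was 4530 to 6040 FPKM in overexpression and 4100 to 5530 FPKM in empty controls. Lyz2 was the highest of these markers, at up to 2250 FPKM in a library, and the sum does not show whether each marker fell. T and NK cell markers summed to at most 4.37 FPKM in any library, with Cd3e, Cd3g, Ncr1 and Klrb1c at 0 in all 12, and no list of another cell type passed 5.36 FPKM. Whether the lower marker sum of knockdown has a part in the class I results was not tested, and in bulk RNA fewer cells of a type and less RNA per cell cannot be told apart. Nothing in the labels ties the libraries of a group to separate cultures, and each p-value is set against the spread of these libraries alone, which may be technical. Spi1 had 50.9, 42.4 and 52.3 FPKM in knockdown, against 159, 169 and 168 FPKM in scrambled controls. It had 287, 224 and 206 FPKM in overexpression, against 158, 117 and 131 FPKM in empty controls, so both perturbations moved Spi1 as labelled without overlap between groups.

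The class I genes covered a wide range of levels in BV2 cells. As FPKM takes gene length into account, levels of different genes can be compared. By mean FPKM over the 12 libraries, B2m ranked 4 among 17838 genes above 0, H2-D1 ranked 20 and H2-K1 ranked 78. The non-classical genes came lower, with H2-T23 at rank 244, H2-T22 at 539, H2-Q4 at 761, H2-Q7 at 1594, H2-M3 at 2609 and H2-Q6 at 9742. H2-D1 made up 49.9% of the summed heavy chain FPKM in knockdown and 54.2% in scrambled controls, and 55.0% in overexpression and 52.7% in empty controls. H2-K1 made up 28.8% in knockdown and 25.4% in scrambled controls, and 26.0% in overexpression and 27.8% in empty controls. H2-T23 contributed between 8.81% and 10.3% as group means, and H2-Q6 at most 0.158%.

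**Figure D2:**
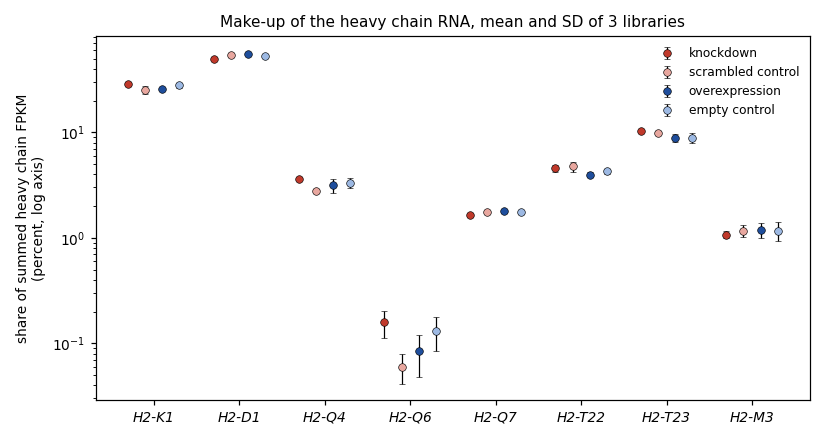
Share of each heavy chain gene in the summed FPKM of the 8 heavy chain genes, as the mean and SD of 3 libraries per group, in percent on a log axis. H2-D1 and H2-K1 together hold most of the sum in every group, and H2-Q6 holds less than any other gene, with 0.158% in knockdown and 0.0602% in scrambled controls.

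In knockdown, 3 heavy chain genes rose: the classical H2-K1 and the non-classical H2-Q4 and H2-Q6. The other classical chain, H2-D1, had nearly the same level as in controls, and B2m was not called. Each gene was tested on log2(FPKM + 1) with limma and Benjamini-Hochberg adjustment over 11214 genes, and 3 of the 9 members were called at an adjusted p under 0.05, all higher. The background was high, with 26.3% of all genes tested called, of which 1952 (17.4% of those tested) were higher and 993 (8.86%) lower. With median-of-ratios scaling the split was 1251 higher and 1454 lower, 11.2% and 13.0% of those tested, and the same 3 members were called. The median log2 fold change was 0.08 over the 9 members and 0.07 over all genes tested. The count and the share called depended on the fit: it was 4 members and 45.3% of genes with the replicate number as a block, 1 member and 14.5% with 1 spread shared over 12 libraries, and 1 member and 4.08% without the libraries numbered 2. Under the shared spread H2-Q6 was the member still called, and without the libraries numbered 2 it was H2-Q4.

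H2-K1 had 905, 867 and 944 FPKM in knockdown, against 674, 729 and 785 FPKM in scrambled controls. Every knockdown library lay above every control. The log2 fold change was 0.31 (SE 0.0759, 95% interval 0.14 to 0.49), a fold of 1.24 on this scale, with an adjusted p of 0.0237 in limma. The call was sensitive to single libraries: it was lost without knockdown library 1 or 3 or scrambled control library 1 or 2. Over all alternatives its adjusted p in limma lay between 0.0111 and 0.0999. H2-K1 was higher in 3 of 3 pairs of the same number, and the fit with the number as a block gave an adjusted p of 0.0111.

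H2-D1, in contrast, had 1713, 1447 and 1557 FPKM in knockdown, against 1689, 1444 and 1554 FPKM in scrambled controls. The 2 groups overlapped almost completely, and library 1 was the highest in both. The log2 fold change was 0.01, with a 95% interval of -0.2 to 0.22 that contains small changes in either direction (limma, adjusted p = 0.951).

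H2-Q4, a non-classical gene of the Q region, had 122, 104 and 119 FPKM in knockdown, against 81.0, 75.3 and 84.6 FPKM in scrambled controls. The groups were apart. The log2 fold change was 0.51 (SE 0.0822, 95% interval 0.32 to 0.70), and the adjusted p in limma was 0.00663. H2-Q4 stayed called whichever single library of the experiment was left out.

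H2-Q6, a Qa-2 family gene, had 3.49, 5.66 and 5.67 FPKM in knockdown, against 1.15, 1.87 and 2.17 FPKM in scrambled controls. It was the least abundant of the 9 and moved most: its log2 fold change was 1.12 (SE 0.195, 95% interval 0.66 to 1.57), with an adjusted p of 0.00842 in limma. The groups were apart, with knockdown library 1 below the other knockdown libraries and scrambled control library 1 below the other controls. These levels rest on 91, 148 and 184 reads in knockdown, against 29, 45 and 52 reads in scrambled controls. The exact Poisson 95% intervals, which cover counting error only, were 73.3 to 112.0 reads in knockdown library 1 and 38.8 to 68.2 reads in scrambled control library 3. These are the lowest knockdown library and the highest control, with 26.6 and 24.4 megareads. Knockdown libraries were deeper than scrambled controls, which FPKM takes into account but these intervals do not. The intervals therefore do not show a gap at equal depth.

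H2-Q7, whose product is the Qa-2 antigen, had 54.9, 51.1 and 51.0 FPKM in knockdown, against 50.7, 49.8 and 50.7 FPKM in scrambled controls. The groups did not overlap, but the gap was small, and the log2 fold change of 0.05 (95% interval -0.09 to 0.19) was not called (limma, adjusted p = 0.537). Median-of-ratios scaling turned the direction of this small difference, to a log2 fold change of -0.03.

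H2-T23 encodes Qa-1, which shows leader peptides of other class I chains to natural killer cells. It had 343, 303 and 323 FPKM in knockdown, against 300, 278 and 278 FPKM in scrambled controls, and the groups were apart by a small margin. The log2 fold change was 0.18 (SE 0.0708), and limma gave an adjusted p of 0.103 without the replicate number as a block and 0.0273 with it. H2-T23 was the only member whose call in knockdown changed with the block.

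H2-T22, a ligand of gamma delta T cells, had 143, 132 and 159 FPKM in knockdown, against 123, 137 and 151 FPKM in scrambled controls. H2-M3, which presents formylated peptides, had 32.5, 33.7 and 34.6 FPKM in knockdown, against 32.1, 37.0 and 31.6 FPKM in scrambled controls. Both pairs of groups overlapped, and the log2 fold changes were 0.08 (limma, adjusted p = 0.576) for H2-T22 and 0.0 (limma, adjusted p = 0.968) for H2-M3.

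B2m had 4076, 3630 and 3544 FPKM in knockdown, against 4421, 3777 and 3708 FPKM in scrambled controls. The groups overlapped, although each knockdown library was lower than the control of its number. The log2 fold change was -0.08 (95% interval -0.3 to 0.14), and the adjusted p was 0.545 in limma. Over the 9 members, H2-K1, H2-Q4, H2-Q6, H2-Q7 and H2-T23 lay wholly above the controls and none wholly below, while 30.3% of all genes tested lay wholly above and 15.1% wholly below.

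**Figure D3:**
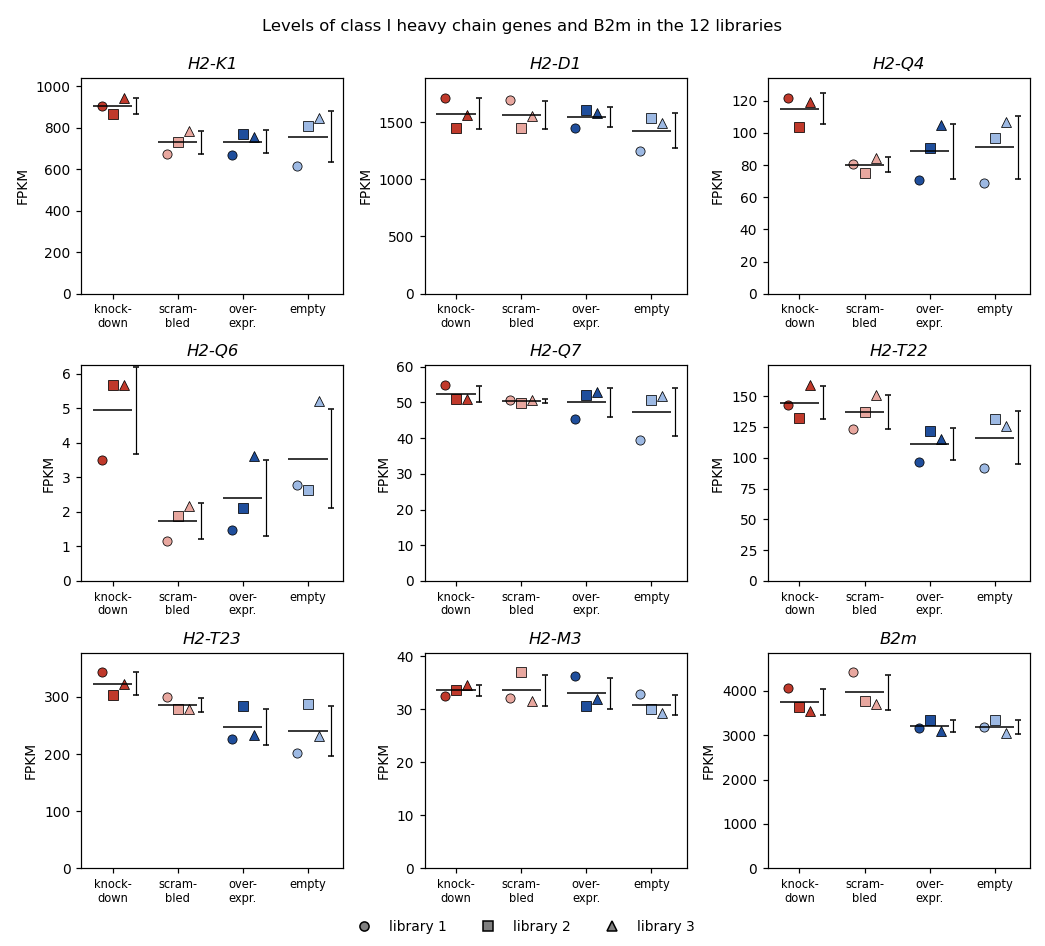
FPKM of the 9 genes in each library, 1 panel per gene with a y axis from 0; symbols mark library numbers, the horizontal line is the mean of 3 libraries and the bar beside it is the SD. Knockdown points lie wholly above the scrambled controls for H2-K1, H2-Q4, H2-Q6, H2-Q7 and H2-T23, and overexpression and empty control points overlap in all 9 panels.

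In overexpression, 0 of the 9 members were called by limma, and 0.0% of 11217 genes tested were called. Across all genes 122 had an unadjusted limma p under 0.05 in this fit without pairing, and limma-voom on recovered reads called 0 as well. With the block on replicate number 1577 genes had an unadjusted limma p under 0.05. That fit called 13 genes (0.116%), none of them a member. The count of 122 thus depends on leaving out the pairing and does not show that few genes moved. The median log2 fold change was 0.01 over the members and -0.01 over all genes tested. Overexpression and empty control libraries overlapped for all 9 members, while 1.66% of all genes lay wholly above and 2.4% wholly below. Spi1 itself had a log2 fold change of 0.81 (SE 0.165) with an adjusted p of 1.0 in limma, and 0.0357 with the block, so a rise of Spi1 of this size did not pass without it.

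H2-K1 had 668, 771 and 755 FPKM in overexpression, against 615, 809 and 846 FPKM in empty controls. H2-D1 had 1447, 1607 and 1580 FPKM in overexpression, against 1248, 1532 and 1495 FPKM in empty controls. The log2 fold changes were -0.04 (95% interval -0.38 to 0.31) for H2-K1 and 0.12 (-0.14 to 0.38) for H2-D1, and library 1 was the lowest of both genes in both groups.

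H2-Q4 had 70.9, 90.4 and 105 FPKM in overexpression, against 69.1, 96.9 and 107 FPKM in empty controls. H2-Q6 had 1.47, 2.10 and 3.61 FPKM in overexpression, against 2.78, 2.64 and 5.20 FPKM in empty controls. H2-Q6 was lower in all 3 pairs of the same number. Its log2 fold change of -0.43 had an SE of 0.293 and a 95% interval of -1.13 to 0.28 in the fit without pairing. With the replicate number as a block the SE was 0.0779, and H2-Q6 was not called there either (limma, adjusted p = 0.148). H2-Q7 had 45.3, 52.0 and 52.8 FPKM in overexpression, against 39.6, 50.6 and 51.9 FPKM in empty controls.

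H2-T22 had 96.7, 122 and 115 FPKM in overexpression, against 91.8, 131 and 126 FPKM in empty controls. H2-T23 had 226, 284 and 233 FPKM in overexpression, against 202, 288 and 231 FPKM in empty controls. The groups overlapped for both, and the spread within a group was larger than the difference between the means. H2-M3 had 36.3, 30.7 and 32.0 FPKM in overexpression, against 32.9, 30.1 and 29.4 FPKM in empty controls. B2m had 3154, 3352 and 3105 FPKM in overexpression, against 3185, 3344 and 3043 FPKM in empty controls, with a log2 fold change of 0.01 and a 95% interval of -0.19 to 0.2. Library 1 was the lowest of its group for 7 of the 9 members in overexpression and for 6 of the 9 in empty controls.

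**Figure D4:**
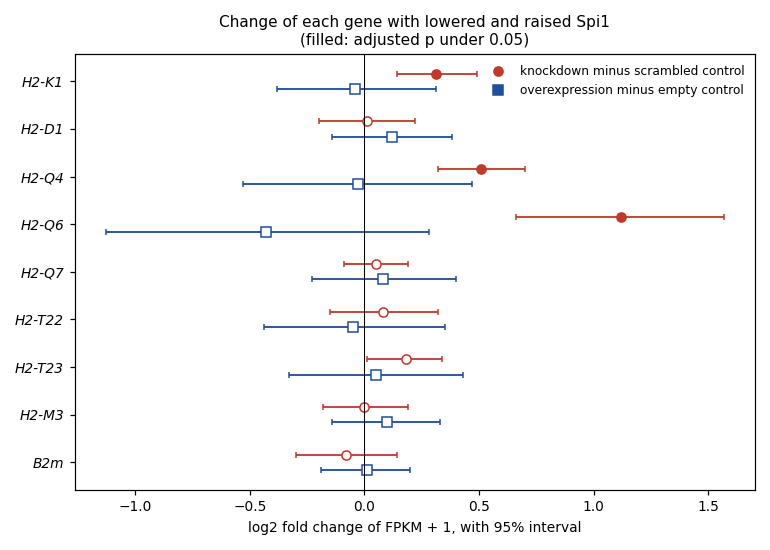
Log2 fold change of FPKM + 1 for each gene with its 95% interval, for knockdown minus scrambled control and overexpression minus empty control; filled symbols have an adjusted p under 0.05 in limma. H2-K1, H2-Q4 and H2-Q6 are filled in knockdown, and every overexpression interval contains 0.

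The 2 effects on a gene were compared as overexpression effect minus knockdown effect over the 12 libraries. As the perturbations moved Spi1 in opposite directions, a gene that follows Spi1 in both also has a value away from 0. For Spi1 itself it was 2.56 (limma, adjusted p = 0.000331). A called difference therefore does not show that the 2 experiments disagree. For H2-Q6 this difference was -1.54 on the log2 scale (SE 0.387, 95% interval -2.4 to -0.69), with an adjusted p of 0.048 in limma. H2-Q6 was the only one of the 9 members called, against a background of 4.84% of 11224 genes, 1.9% with a higher and 2.94% with a lower effect in overexpression. This call held in 5 of 18 alternatives, and without the libraries numbered 2 it was lost while 0.713% of genes were called. For H2-Q4 the difference was -0.54, with an adjusted p of 0.218 in limma without the block and 0.00128 with it. For H2-K1 it was -0.35, with an adjusted p of 0.256 without the block and 0.0189 with it. With the block 3 members were called, while 41.5% of all genes were called under that fit. For the other 6 members neither fit called a difference.

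Across the 4 groups, knockdown had the highest mean FPKM of all 8 heavy chain genes. The lead over scrambled controls was very small for H2-D1 (1572 against 1563 FPKM) and H2-M3 (33.59 against 33.55 FPKM). With median-of-ratios scaling the knockdown log2 fold change was -0.07 for each of these genes and -0.03 for H2-Q7, so the pattern depends on the scaling. The share of all genes with their highest mean in knockdown was not counted. H2-K1 followed the order knockdown, empty control, overexpression and scrambled control, and only the step from knockdown to the next group had no overlap. H2-Q4 and H2-Q6 followed the same order, with overlap at every step. H2-T23 and H2-Q7 followed the order knockdown, scrambled control, overexpression and empty control, with overlap at every step below knockdown. H2-D1 and H2-M3 had that order too, with overlap at every step, and H2-T22 had empty control above overexpression. B2m was ordered differently, with the highest mean in scrambled controls, at 3969 ± 393 FPKM, and then 3750 ± 286 FPKM in knockdown. It averaged 3204 ± 131 FPKM in overexpression and 3191 ± 151 FPKM in empty controls (SD, n = 3 each), so the knockdown experiment and the overexpression experiment did not overlap for B2m. The tables were scaled alike, but such a step between experiments is not a step between Spi1 levels.

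Ratios within a library do not depend on its scaling. The ratio of H2-K1 to H2-D1 was 0.528, 0.599 and 0.606 in knockdown, against 0.399, 0.505 and 0.505 in scrambled controls. It was 0.462, 0.480 and 0.478 in overexpression, against 0.493, 0.528 and 0.566 in empty controls. The ratio was higher in all 3 knockdown libraries and lower in all 3 overexpression libraries than in any of their own controls. The mean log2 differences were 0.30 in knockdown and -0.16 in overexpression, each with a two-sided exact permutation p of 0.1, the smallest that 3 against 3 libraries can give. Over the 3 pairs of the same number the exact sign-flip p was 0.25 in both experiments, the smallest that 3 pairs can give.

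The ratio of B2m to the summed heavy chains was 1.23, 1.23 and 1.11 in knockdown, against 1.50, 1.37 and 1.26 in scrambled controls. Light chain RNA was thus lower relative to heavy chain RNA in every knockdown library than in any control, with a mean log2 difference of -0.21 (two-sided exact permutation p = 0.1, and 0.25 over the 3 pairs, each the smallest possible). Without H2-Q4, H2-Q6 and H2-Q7 in the sum the difference was -0.2. In overexpression the ratio was 1.22, 1.13 and 1.08, against 1.38, 1.14 and 1.05 in empty controls, and the groups overlapped. The mean log2 difference of -0.05 (two-sided exact permutation p = 0.8, and 0.75 over the 3 pairs) turned to 0.06 without empty control library 1.

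**Figure D5:**
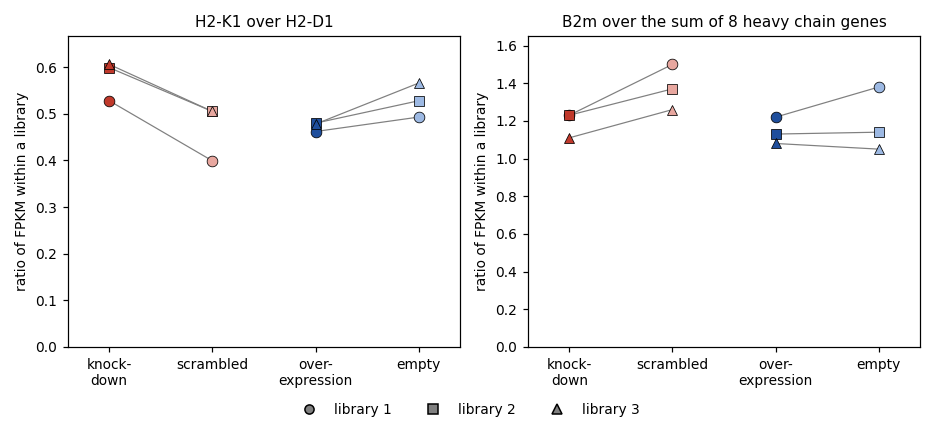
Ratio of FPKM within each library for H2-K1 over H2-D1 and for B2m over the sum of the 8 heavy chain genes; grey lines join libraries of the same number. The first ratio is higher in knockdown than in scrambled controls and lower in overexpression than in empty controls without overlap, and the second is lower in knockdown without overlap.

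Class I genes resemble each other, and the tables count some of their reads under more than 1 name. In all 12 libraries the reads recovered for H2-Q8 equalled those of H2-Q6, and those of H2-Q9 equalled those of H2-Q7, although the lengths used differ (981 bases for H2-Q6 and 1011 for H2-Q8, 1536 for H2-Q7 and 1521 for H2-Q9). Among 11795 entries with 10 or more reads in each library, 53 had the same reads as another entry in all 12, and 2 of these were members. The entry H2-L held between 77.9% and 79.8% as many reads as H2-D1, and H2-T9 between 99.5% and 99.8% as many as H2-T22. GENCODE M21 has no gene named H2-L, H2-Q8, H2-Q9 or H2-T9. H2-K2 held at most 0.741% as many reads as H2-K1. The values of H2-Q6, H2-Q7, H2-D1 and H2-T22 may therefore each describe more than 1 locus or name.

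The sequences themselves show where a read could be placed at more than 1 gene. Of the 100-base stretches in the longest protein-coding GENCODE transcript, 10.8% of those of H2-Q6 occur in the transcripts of another gene, 8.36% in H2-Q7. For H2-Q7 the share was 16.4%, with 11.7% in H2-Q6 and 4.71% in H2-Q5. It was 14.2% for H2-T22, mostly in H2-T10, 7.28% for H2-T23, 4.64% for H2-D1 and 2.66% for H2-Q4. H2-K1, H2-M3 and B2m had 0.0%, so of the 3 genes called in knockdown H2-K1 had no such stretch, H2-Q4 few and H2-Q6 more. Only identical stretches were counted. As GENCODE M21 has no genes named H2-L, H2-Q8, H2-Q9 or H2-T9, the search could not count stretches shared with those entries. These shares therefore do not measure how many reads the deposited values share. Whether reads placed at more than 1 gene have a part in the H2-Q6 values was not tested.

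Of 15 peptide loading and immunoproteasome genes, which prepare peptides for class I molecules, 1 rose and 0 fell in knockdown by limma, while 17.4% of all genes tested rose and 8.86% fell. The median log2 fold change was 0.15 over the list and 0.07 over all genes. With median-of-ratios scaling 1 rose and 1 fell. Psmb9, a catalytic subunit of the immunoproteasome, averaged 62.8 ± 1.01 FPKM in knockdown and 44.4 ± 7.57 FPKM in scrambled controls (SD, n = 3 each). Its log2 fold change was 0.50 (limma, adjusted p = 0.022). With the block 5 of the 15 rose: Psmb9, Psmb8 and Psme1 of the proteasome, the peptide transporter subunit Tap2 and the chaperone Pdia3. Under that fit 30.6% of all genes tested rose and 14.7% fell. In overexpression 0 of the 15 were called in either fit.

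Among 24 regulators of class I transcription, 0 rose and 2 fell in knockdown, against 17.4% and 8.86% of all genes, and the median log2 fold change was -0.02. Irf9, a transcription factor of the type I interferon response, averaged 21.4 ± 0.782 FPKM in knockdown and 27.6 ± 1.24 FPKM in scrambled controls. Its log2 fold change was -0.36 (limma, adjusted p = 0.00931). Ifngr2, a chain of the interferon gamma receptor, averaged 67.6 ± 3.81 FPKM in knockdown and 89.1 ± 2.28 FPKM in scrambled controls, with a log2 fold change of -0.40 (limma, adjusted p = 0.00713). Nlrc5, the class I transactivator, named here after its values were seen, averaged 43.8 ± 0.722 FPKM in knockdown and 39.7 ± 2.73 FPKM in scrambled controls and was not called (limma, adjusted p = 0.173). With the block 4 regulators rose (Irf2, Nfyb, Relb and Rfx5) and 3 fell (Irf7, Irf9 and Ifngr2), against 30.6% and 14.7% of all genes. In overexpression 0 of the 24 were called in either fit.

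Of 23 other class I and class I-like genes, 13 passed the filter on low values, and 1 rose in knockdown, H2-Q8, which holds the reads of H2-Q6. With the block 3 of the 13 rose and 1 fell, against 30.6% and 14.7% of all genes. Of 11 class II genes, 4 passed the filter and 0 were called in knockdown, where 26.3% of all genes were called, or in overexpression. With the block 1 of the 4 rose in knockdown and 1 fell. Cd74, the class II invariant chain, averaged 103 ± 16.3 FPKM in knockdown and 144 ± 24.1 FPKM in scrambled controls, a log2 fold change of -0.48 (limma, adjusted p = 0.0576, and 0.0074 with the block). H2-Oa, another gene of the class II list, averaged 3.73 ± 1.1 FPKM in knockdown and 2.98 ± 0.969 FPKM in scrambled controls, a log2 fold change of 0.25 (limma, adjusted p = 0.398, and 0.0237 with the block).

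The members did not follow a single pattern over the 12 libraries. As a description, with libraries that share experiments and depth, Pearson's r of log2(FPKM + 1) was 0.92 between H2-K1 and H2-Q4, 0.85 between H2-D1 and H2-Q7 and 0.82 between H2-T22 and H2-T23. It was 0.47 between the classical genes H2-K1 and H2-D1, and 0.12 between H2-K1 and B2m. H2-M3 had an r between -0.36 and 0.18 with each of the other 8 genes. Among 8779 genes averaging 5 FPKM or more, those most like H2-K1 were Gstp1 (r = 0.945), Mprip (r = 0.945) and Sbf1 (r = 0.943). Those most like H2-D1 were H2-L (r = 0.997), Napsa (r = 0.894) and Ppcdc (r = 0.864). The H2-L entry held 77.9% to 79.8% as many reads as H2-D1 and may count the same reads, so its r may not compare 2 separate genes. Those most like B2m were Plekhm2 (r = 0.942), Npc2 (r = 0.93) and Rtn4 (r = 0.922).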

How the data were processed

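RNA of sorted BV2 cells was sequenced from polyA libraries as single reads of 100 bases, per the labels' protocols; the TruSeq v2 kit used keeps no strand information. The authors deposited 2 tables of FPKM with 24062 entries by gene symbol; the unit is not stated and was read from the values. Build mm10, STAR 2.5.2a, featureCounts, DESeq2 1.14, bcl2fastq and CASAVA 1.8.2 are listed in the submitters' processing notes. The annotation, the gene lengths and the handling of reads over several genes were not given in the sources used here. Whole reads were recovered for 17842 of 17842 entries above 0 from the steps of the values (gene lengths whole within 0.01 base), and gave 22.3 to 33.1 megareads per library.

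Groups came from the treatment labels and replicate numbers from the titles. Under R 4.3.3, limma 3.58.1 was fitted to log2(FPKM + 1) of each experiment, for genes averaging 1 FPKM or more, with Benjamini-Hochberg adjustment over all of them and a threshold of 0.05; this understates changes of low genes. The 4 entries with a repeated symbol were left out. The difference of effects was an interaction over 12 libraries. The plan named a count model for count tables; as the tables hold FPKM, limma was used. Ratios were compared with exact permutation tests in Python 3.11.15. Calculations were tested on simulated data. The alternatives were a pseudocount of 0.1, no filter, median-of-ratios scaling, the replicate block, 1 shared spread, leaving out libraries, and limma-voom on recovered reads.

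Deviations from group means correlated between libraries of the same number (r = 0.397, 0.535 and 0.343 in the knockdown experiment, 0.800, 0.848 and 0.514 in the overexpression experiment, over 11224 genes), all above 0.1. Between libraries of different number the highest r was -0.0351 in the knockdown experiment and 0.1565 in the overexpression experiment. Libraries of the same number were treated as paired only in the blocked fit and in the sign-flip tests of the ratios. The main fits and the permutation tests of the ratios are without the pairing, and the blocked fit is quoted beside results whose call it changed. Named genes were all members and Spi1, up to 4 genes per list and direction called in the main fits or up to 2 that did not pass, and the 3 genes most like H2-K1, H2-D1 and B2m. Beyond this rule, list genes called in knockdown only with the block were named, except those of the other class I and class I-like list. The members and lists were chosen with earlier results of these data known, as were the motifs searched in RefSeq upstream windows.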

Additional observations from a re-analysis of the deposited data

Results flagged for a closer look

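As Spi1 moved in opposite directions, a difference between the 2 effects does not show that the experiments disagree. For H2-Q6, overexpression minus knockdown was -1.54 on the log2 scale (limma interaction, adjusted p = 0.048). The call held in 5 of 18 alternatives, among them 2 of the 12 that leave out 1 library, and the difference lay between -2.15 and -1.3 over them. H2-Q6 had 43, 57 and 103 reads in overexpression, against 61, 62 and 142 reads in empty controls, and 91, 148 and 184 reads in knockdown, against 29, 45 and 52 reads in scrambled controls. The same reads are also counted under H2-Q8, so the 2 entries are 1 measurement.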

How the results depend on the processing

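In knockdown 3 members were called as reported and 3 with a pseudocount of 0.1, without a filter, with median-of-ratios scaling or with limma-voom. It was 4 with the replicate block, 1 with 1 shared spread and 1, H2-Q4, without libraries numbered 2. Leaving out 1 library gave 2 to 3. Genes called in knockdown numbered 2945 of 11214 tested as reported, 2765 with a pseudocount of 0.1, 2705 with median-of-ratios scaling and 3294 with limma-voom. Without a filter 2659 of 17037 tested were called. The number was 5081 with the replicate block, 1624 with the shared spread, 457 without libraries numbered 2, and 1467 to 2197 with 1 library left out. In overexpression the block gave 13 genes. For the difference, the count of members was 0 with a pseudocount of 0.1, 0 without a filter, 3 with the block, 0 without libraries numbered 2, and 0 to 1 with 1 library left out. Genes called for the difference were 543 of 11224 tested as reported, 503 with a pseudocount of 0.1 and 618 of 17838 tested without a filter. The number was 4658 with the block, 80 without libraries numbered 2, and 109 to 566 with 1 library left out. H2-Q6 in knockdown was not called without libraries numbered 2 (limma, adjusted p = 0.07), and H2-Q4 not with the shared spread (limma, adjusted p = 0.0672). H2-K1 was called in 7 of 13 alternatives, with a log2 fold change of 0.23 to 0.37 over them. The overexpression difference in B2m over heavy chains ranged from -0.14 to 0.06 with 1 library left out. The cause of these changes was not tested. The block changed the call of H2-T23 in knockdown and of H2-K1 and H2-Q4 in the difference, and of no other member. No called member changed direction under any of these alternatives. Counts of 29 to 184 reads limit the precision of H2-Q6.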
